A study of Mus musculus with 12 samples.

Results

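The genes described here encode the proteins of the cytosolic ribosome, the particle that makes nearly all protein of a cell. They were chosen by name: every protein-coding gene whose symbol begins with Rpl or Rps and a digit, together with Rplp0, Rplp1, Rplp2 and Rpsa, but without the Rps6k kinases, Rps19bp1 and the pseudogenes. This gave 85 genes, 52 with large-subunit and 33 with small-subunit symbols, of the 55357 gene identifiers in the count table. Poly(A) RNA of heart tissue was sequenced in 4 groups of 3 libraries from male mice, all C57BL/6J or on that background: Cd163-/- (KO) after transverse aortic constriction (TAC), KO after sham surgery, wild type (WT) after TAC, and WT after sham surgery. Cd163 encodes the haemoglobin scavenger receptor of macrophages. TAC, tied here over a 27-gauge needle, narrows the aorta and loads the left ventricle with pressure, and sham surgery was the same operation without the ligature. Mice were 8 weeks old at surgery, and the time between surgery and collection is not stated in the labels. No label ties a library to a named animal, so p-values cover only the spread among these 12 libraries.

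Most of these proteins are present in a single copy per ribosome, bound to ribosomal RNA, and cells make them in matched amounts. The small subunit reads the mRNA and the large subunit joins the amino acids. Rplp0, Rplp1 and Rplp2 form the stalk of the large subunit that recruits elongation factors. Most mRNAs of ribosomal proteins are short, abundant and long-lived, and begin with a run of pyrimidines, the terminal oligopyrimidine tract, through which mTORC1 and the protein Larp1 control their translation. Heart muscle cells under pressure load enlarge and build more ribosomes, a step in which ribosomal RNA synthesis by RNA polymerase I is a known control point. A few ribosomal proteins have a second gene with restricted expression, and Rpl3l, the striated muscle counterpart of Rpl3, is the best known of them in the heart.

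Start-site windows of some of the members named below are shown here, since a pyrimidine tract at the start is a known feature of mRNAs of ribosomal proteins. No such window was available for Rpl23a. Each runs from 15 bases before to 15 bases from the start annotated by RefSeq (GRCm38.p6), 5′ to 3′ on the strand of the gene, and capitals mark a run of at least 5 C or T that lies within 3 bases of that start.
Rpl38: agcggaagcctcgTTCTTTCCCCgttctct
Rps21: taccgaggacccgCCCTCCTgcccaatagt
Rpl15: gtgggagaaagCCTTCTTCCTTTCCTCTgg
Rps6: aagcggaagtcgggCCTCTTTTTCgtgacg
Rps2: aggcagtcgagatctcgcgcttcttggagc
Rpl3l: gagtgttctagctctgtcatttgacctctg
The windows are at chr11:114668565-114668594 (plus strand) for Rpl38, chr2:180257364-180257393 (plus) for Rps21, chr14:18270972-18271001 (minus) for Rpl15, chr4:86857353-86857382 (minus) for Rps6, chr17:24720048-24720077 (plus) for Rps2 and chr17:24727811-24727840 (plus) for Rpl3l. Rpl38, Rps21, Rpl15 and Rps6 had such a run, while Rps2 and Rpl3l had none at the annotated start. In the Rps2 window a run of C and T, cttctt, lies just beyond the limit of 3 bases. Of the 65 members matched in the promoter table, 31 (47.7%) had a run of this kind, against 27.4% of all 27025 genes of the table. The motif CCGGAAG, searched on both strands in the 300 bases from 250 before to 50 after the start, lay in 26 of the 65 members (40.0%) and in 9.93% of all genes. The TATAAA motif, searched in the same way, lay in 7 members (10.8%) and in 15.7% of all genes. RefSeq starts can lie upstream or downstream of the start used in the heart, so these counts describe the annotation.

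Total counts ran from 14150109 to 22602225 per library, and Cd163 itself stood at 3.14 to 4.60 CPM (counts scaled to a common library size by TMM, which equalises libraries on the bulk of their genes) in the 6 KO libraries, against 13.7 to 29.5 CPM in the 6 WT libraries. Cardiomyocyte markers were abundant in every library. The library labelled KO sham replicate 1 stood apart from the other 2 of its group in most of the values given here. Mitochondrial genes took 51.0% of its counts, against 30.5% and 31.6% in KO sham replicates 3 and 2, and 44.0% to 51.3% in the KO TAC libraries. Results that rest on it are therefore given with and without it. Values of single libraries are given in the order of the replicate numbers, which are 1, 3 and 5 in the TAC groups and 1, 2 and 3 in the sham groups.

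Of the 85 members, 82 had enough counts to be tested, 49 of the large and 33 of the small subunit. Rpl10l, a testis-expressed copy of Rpl10, had 0 counts in every library, which allows up to 3 counts per library. Rpl39l and Rpl36al, the second copies of Rpl39 and Rpl36a, had 35 and 36 counts over all 12 libraries and were not tested. Among tested members in WT sham hearts the 3 highest were Rplp0 with 449 ± 35.3 CPM, Rps2 with 433 ± 29.4 CPM and Rpl4 with 388 ± 14.2 CPM (SD, n = 3). Rplp0 is the base of the stalk, Rps2 lies at the entry of the mRNA channel and Rpl4 lines the exit tunnel. Per kilobase of coding sequence the level of Rpl41, the shortest member with 138 coding bases, was higher than theirs, at 1606 CPM per kilobase against 472 for Rplp0, 478 for Rps2 and 308 for Rpl4. Reads come from the whole mRNA and only coding bases enter this division, so these values do not compare numbers of mRNA molecules.

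The 3 lowest tested members in WT sham hearts were Rpl24, Rps10 and Rps27rt, with 4 to 25, 15 to 51 and 29 to 70 counts per library over the whole series. Rpl13a, known in human monocytes for its release from the ribosome in inflammation, had 92 to 175 counts per library. Their counts are uncertain, because near-identical copies of these genes can take or share their reads and the labels do not say how shared reads were counted. The pseudogene Rps10-ps2 alone held 8407 counts over the 12 libraries, against 366 for Rps10. Rows of ribosomal protein pseudogenes numbered 301, of which 196 had a count, and their summed CPM was 2.58% to 3.06% of that of the members in every library.

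Taken as 1 sum of TMM-scaled CPM, ribosomal protein mRNA was highest in KO TAC hearts and lowest in 2 of the 3 KO sham hearts, an order that did not hold as a share of all counts. The members summed to 18030, 17900 and 17230 CPM in KO TAC hearts, against 16150, 9966 and 9974 CPM in KO sham hearts. In WT hearts they summed to 17200, 15560 and 14720 CPM after TAC, against 11640, 10920 and 13500 CPM after sham surgery. The TAC and sham libraries did not overlap in either genotype. KO sham replicate 1 lay near the KO TAC libraries, and the other 2 KO sham libraries lay below every WT sham library. As a share of the counts of nuclear genes, which leaves the mitochondrial transcripts out, the members took 3.17%, 3.13% and 3.13% in KO TAC hearts, against 3.05%, 1.57% and 1.62% in KO sham hearts. The share was 2.79%, 2.32% and 2.15% in WT TAC hearts, against 1.72%, 1.66% and 2.08% in WT sham hearts. As a share of all counts, mitochondrial transcripts included, the members took 1.55%, 1.62% and 1.75% in KO TAC hearts, against 1.50%, 1.07% and 1.13% in KO sham hearts. This share was 2.10%, 1.59% and 1.45% in WT TAC hearts, against 1.10%, 1.07% and 1.31% in WT sham hearts, so that WT TAC replicate 1 was the highest of all 12. With 3 libraries against 3 an exact two-sided permutation test cannot go below p = 0.1, so the sums are given as values. In bulk tissue, fewer cells of a type and less RNA per cell cannot be told apart.

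**Figure D1:**
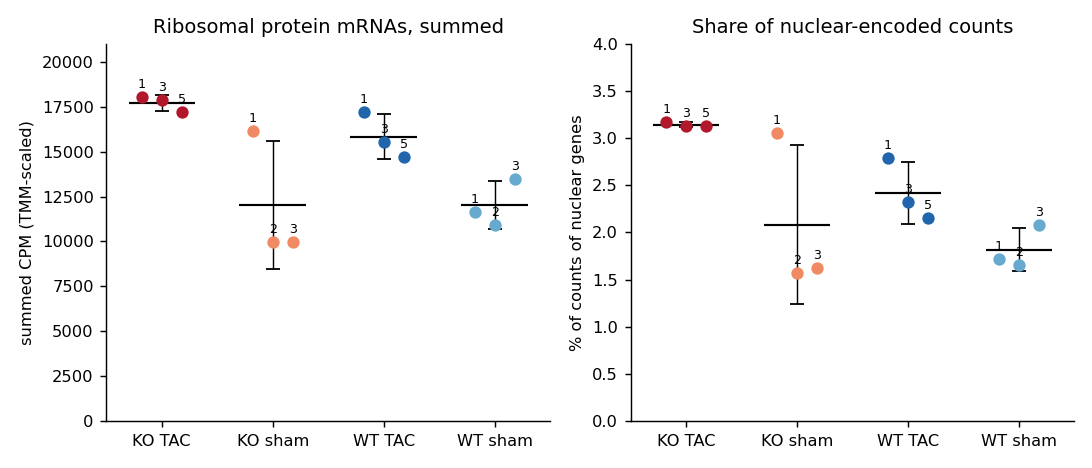
Summed level of the 85 ribosomal protein genes in each library (points, numbered by replicate), as TMM-scaled CPM on the left and as a percent of the counts of nuclear genes on the right. Lines are group means and bars are SD (n = 3). KO TAC libraries lie between 17230 and 18030 CPM, while KO sham replicate 1, at 16150 CPM, lies far above the other 2 KO sham libraries.

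TAC against sham surgery in KO hearts asks what pressure load does to these mRNAs without Cd163. Nearly the whole family stood higher after TAC: 75 of 82 tested members had a positive log2 fold change, with a median of 0.61 against -0.02 over all 15804 genes tested. None was called, that is, none had an adjusted p under 0.05 in edgeR's quasi-likelihood test with Benjamini-Hochberg adjustment over all genes, and neither was any other gene (percent called 0.0). At an unadjusted p under 0.05 there were 58 members, among 4878 of all genes. DESeq2 called 39 members, among 5.66% of all genes, and limma-voom with sample weights called 72 higher and 6 lower, among 63.2% of all genes. In 61 members every KO TAC library lay above every KO sham library, against 11.6% of all genes.

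Leaving out KO sham replicate 1, 66 members rose and 4 fell after TAC in KO hearts, among 47.6% of all genes called, 22.4% higher and 25.1% lower. The median of the members was then 0.90, against 0.01 over all genes. The medians were 0.86 for the large-subunit and 1.01 for the small-subunit members. With WT TAC replicate 1 left out as well, 67 rose and 4 fell, among 55.5% of all genes called, 26.8% higher and 28.7% lower. Rpl38, a surface protein of the large subunit that in mouse embryos is known for selective translation of Hox mRNAs, varied most over the 12 libraries. It had 165, 176 and 164 CPM in KO TAC hearts, against 146, 29.7 and 26.2 CPM in KO sham hearts. The KO TAC libraries lay above all 3 KO sham libraries, and KO sham replicate 1 was close below them. Its log2 fold change was 1.33 ± 0.53 (SE, adjusted p = 0.129), and without KO sham replicate 1 it was 2.59 ± 0.25 (adjusted p = 5.29e-05).

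Rps29, a zinc-finger protein of the small-subunit head, followed it, with 315, 314 and 312 CPM in KO TAC hearts, against 267, 62.1 and 55.0 CPM in KO sham hearts. Its log2 fold change was 1.30 ± 0.49 (adjusted p = 0.121), and 2.42 ± 0.23 without that library (adjusted p = 5.29e-05). Rps20, also of the head, had 256, 283 and 248 CPM in KO TAC hearts, against 230, 64.3 and 65.0 CPM in KO sham hearts. In these 3 most variable members KO sham replicate 1 lay beside the KO TAC libraries. The 3 least variable members were Rpl4, Rpl10 and Rps6. Rps6, the target of the S6 kinases and the classic reporter of mTORC1 activity as a phosphoprotein, had 256, 253 and 231 CPM in KO TAC hearts, against 220, 211 and 214 CPM in KO sham hearts, a log2 fold change of 0.20 ± 0.14 (adjusted p = 0.35), without overlap between the groups. Rpl10, which is added late and completes the large subunit, had a log2 fold change of 0.22 ± 0.16 (adjusted p = 0.342).

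The members with the smallest p in this comparison were Rps15, Rpl41, Rpl36a and Rps15a, and none of them was called with all 12 libraries. Rps15, which helps export the small subunit from the nucleus, had 477, 503 and 457 CPM in KO TAC hearts, against 401, 196 and 187 CPM in KO sham hearts, a log2 fold change of 0.88 ± 0.27 (adjusted p = 0.103). Rpl41, a short basic peptide at the bridge between the subunits, had 371, 384 and 368 CPM in KO TAC hearts, against 318, 176 and 162 CPM in KO sham hearts, a log2 fold change of 0.77 ± 0.24 (adjusted p = 0.103). The groups of both genes did not overlap. Rpl36a and Rps15a had log2 fold changes of 0.96 ± 0.31 and 0.69 ± 0.22, with the same adjusted p. All 4 rose without KO sham replicate 1, by 1.32, 1.14, 1.54 and 1.01 for Rps15, Rpl41, Rpl36a and Rps15a.

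A few members went the other way. Rps2 had 302, 281 and 312 CPM in KO TAC hearts, against 258, 480 and 486 CPM in KO sham hearts. KO sham replicate 1 was the lowest of the 6, and the other 2 KO sham libraries were above every KO TAC library. Rpl23a, which sits at the tunnel exit where the nascent chain emerges, had 62.3, 62.4 and 65.4 CPM in KO TAC hearts, against 64.0, 119 and 113 CPM in KO sham hearts. Rpl15, another core protein of the large subunit, had 101, 93.9 and 94.8 CPM in KO TAC hearts, against 99.0, 129 and 133 CPM in KO sham hearts. Once that library was left out, Rpl23a (log2 fold change -0.88 ± 0.19), Rps2 (-0.70 ± 0.14), Rpl15 (-0.45 ± 0.14) and Rpl7l1 (-0.60 ± 0.16) fell, with adjusted p of 0.0028, 0.00205, 0.0225 and 0.00834. Rpl7l1 is a relative of Rpl7 that acts in ribosome assembly and is counted here by its symbol. With all 12 libraries the 4 log2 fold changes were -0.64 ± 0.25, -0.45 ± 0.23, -0.32 ± 0.16 and -0.38 ± 0.21, and none was called.

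**Figure D2:**
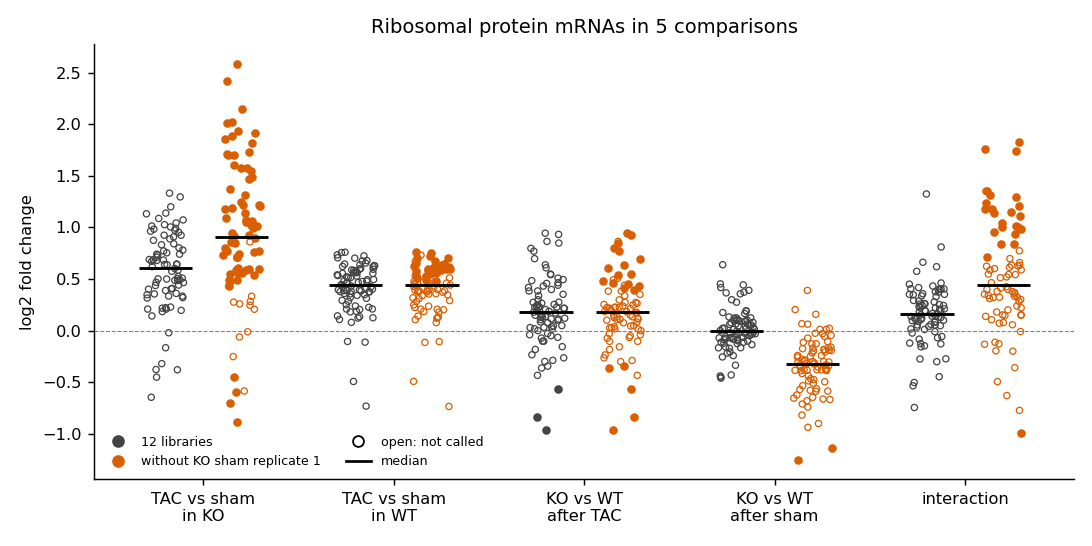
Log2 fold changes of the 82 tested members in the 5 comparisons, from the fit of all 12 libraries (grey) and without KO sham replicate 1 (orange); filled points had an adjusted p under 0.05 and black lines are medians. In TAC against sham in KO the median is 0.61 with all libraries and 0.90 without that one, and in KO against WT after sham it moves to -0.32. Under scaling to library totals without TMM, the medians of KO against WT after TAC and of the interaction turn negative.

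In WT hearts most members also stood higher after TAC. Here 78 of 82 members had a positive log2 fold change, with a median of 0.45 against 0.01 over all genes. Scaled to library totals without TMM the median was 0.61 in WT and 0.47 in KO, with all-gene medians of 0.17 and -0.19. None was called by edgeR, among 0.0316% of all genes called. There were 17 members at an unadjusted p under 0.05, among 2562 of all genes. DESeq2 called 2 members, among 1.45% of all genes, and limma-voom 15, among 6.52%. In 65 members every WT TAC library lay above every WT sham library, against 13.4% of all genes. Without KO sham replicate 1, a library outside this comparison that enters the shared estimate of the spread, 26 members rose and none fell, among 6.53% of all genes called, 3.4% higher and 3.14% lower. The median was then 0.44. With WT TAC replicate 1 left out as well, 19 rose and none fell, among 6.18% of all genes called, 3.39% higher and 2.79% lower.

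Rpl13a, Rpl19 and Rps27l were among the members with the smallest p on the higher side. Rpl19, which forms a bridge to the small subunit, had 270, 209 and 202 CPM in WT TAC hearts, against 145, 135 and 175 CPM in WT sham hearts, a log2 fold change of 0.58 ± 0.21 (adjusted p = 0.227). Its 2 groups did not overlap, and WT TAC replicate 1 was the highest. Rps27l and Rpl13a had log2 fold changes of 0.62 ± 0.23 (adjusted p = 0.234) and 0.63 ± 0.22 (adjusted p = 0.214). Rpl19, Rps27l and Rpl13a rose without KO sham replicate 1, with adjusted p of 0.0408, 0.0453 and 0.0472. The 4 members with a negative log2 fold change were Rps10 (-0.73 ± 0.33), Rpl24 (-0.49 ± 0.48), Rpl23a (-0.11 ± 0.24) and Rpl7l1 (-0.10 ± 0.21), none of them called.

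After TAC, log2 fold changes of members between KO and WT hearts ran in both directions, and the sign of their median depended on the scaling. With all 12 libraries only lower members were called. The median log2 fold change of KO against WT was 0.18, against -0.02 over all genes, with 63 of 82 members positive, but scaled to library totals without TMM it was -0.0514 with 33 positive, and the median over all genes was then -0.235. Relative to all genes the members stood 0.20 higher with TMM and 0.18 higher without it. Of the members 3 were called, all lower in KO TAC hearts, among 20.4% of all genes called, 8.63% higher and 11.7% lower. There were 6 members at an unadjusted p under 0.05, among 6444 of all genes. DESeq2 called 5 members, all lower, among 14.45% of all genes. Limma-voom called 28, of which 22 were higher and 6 lower, among 48.4% of all genes.

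The 3 called members were Rpl23a, Rps2 and Rpl15. Rpl23a (chr11:78180932-78183584 in GRCm38, minus strand) had 62.3, 62.4 and 65.4 CPM in KO TAC hearts, against 86.0, 151 and 133 CPM in WT TAC hearts. It fell by 0.96 on the log2 scale (SE 0.25, adjusted p = 0.0274). Rps2 (chr17:24718116-24721929, plus strand) had 302, 281 and 312 CPM in KO TAC hearts, against 477, 582 and 535 CPM in WT TAC hearts, and it fell by 0.83 (SE 0.23, adjusted p = 0.0328). In both genes every KO TAC library was below every WT TAC library, and WT TAC replicate 1 was the lowest of its group. Rpl15 (chr14:18267823-18271391, minus strand) had 101, 93.9 and 94.8 CPM in KO TAC hearts, against 120, 159 and 150 CPM in WT TAC hearts, and it fell by 0.56 (SE 0.16, adjusted p = 0.0369). Rpl7a, another large-subunit protein, had 170, 163 and 164 CPM in KO TAC hearts, against 201, 234 and 203 CPM in WT TAC hearts, a log2 fold change of -0.36 ± 0.14 (adjusted p = 0.083).

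On the higher side Rps12, Rps21, Rpl26 and Rpl21 had the smallest p in KO against WT after TAC, and none was called. Rps12, a protein of the small-subunit head, had 169, 185 and 158 CPM in KO TAC hearts, against 123, 79.7 and 81.6 CPM in WT TAC hearts, a log2 fold change of 0.85 ± 0.38 (adjusted p = 0.118). Rps21, a short protein of the small subunit, had 161, 164 and 153 CPM in KO TAC hearts, against 99.5, 79.4 and 69.0 CPM in WT TAC hearts, a log2 fold change of 0.94 ± 0.43 (adjusted p = 0.118). Every KO TAC library lay above every WT TAC library in both. Rpl26, known in human cells to bind the mRNA of the p53 tumour suppressor, had a log2 fold change of 0.64 ± 0.33 (adjusted p = 0.167), and Rpl21 one of 0.77 ± 0.41 (adjusted p = 0.174). In 33 members KO TAC libraries were all above WT TAC libraries, and in 12 all below, against 22.7% and 24.3% of all genes. When KO sham replicate 1 was left out of the fit, 16 members rose and 5 fell, among 40.7% of all genes called, 18.5% higher and 22.1% lower. The members that fell were Rps2, Rpl23a, Rpl15, Rpl7a and Rplp0. Rps12, Rps21, Rpl26 and Rpl21 rose, with adjusted p of 0.00244, 0.000825, 0.0101 and 0.0121. Without WT TAC replicate 1 as well, 33 rose and 7 fell, among 53.8% of all genes called, 26.1% higher and 27.7% lower. That library was left out with earlier results known, and of the WT TAC libraries it was nearest to KO TAC in summed CPM.

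After sham surgery KO and WT hearts gave an answer that hung on 1 library. With all 12 libraries the median log2 fold change of KO against WT was -0.00, with 41 members positive and 41 negative, and none was called among 0.00633% of all genes called. At an unadjusted p under 0.05 there was 1 member, among 2138 of all genes. DESeq2 called 0 members, among 0.623% of all genes. Limma-voom, which gives each library a weight, called 1 higher and 33 lower, among 14.9% of all genes. Without KO sham replicate 1, 74 of 82 members were negative, with a median of -0.32 against -0.01 over all genes. Rps27 and Rps29 then fell, among 0.241% of all genes called, 0.0803% higher and 0.161% lower, and in 61 members both remaining KO sham libraries lay below every WT sham library, against 17.7% of all genes. Without WT TAC replicate 1 as well, 17 members fell and none rose, among 1.84% of all genes called, 0.843% higher and 1.0% lower.

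Rps27, a zinc-finger protein of the small subunit, had 98.1, 34.5 and 33.7 CPM in KO sham hearts, against 73.1, 66.95 and 84.7 CPM in WT sham hearts. Replicate 1 of the KO sham group lay above the WT sham libraries and the other 2 below them. Its log2 fold change was -0.44 ± 0.34 with all libraries (adjusted p = 0.528) and -1.13 ± 0.15 without replicate 1 (adjusted p = 0.0116). Rps29 had 267, 62.1 and 55.0 CPM in KO sham hearts, against 136, 116 and 166 CPM in WT sham hearts. Its log2 fold change was -0.12 ± 0.49 (adjusted p = 0.905) and -1.25 ± 0.22 without replicate 1 (adjusted p = 0.0423). With all libraries the smallest p on the higher side were those of Rpl13a, Rps12, Rps27a and Rpl29, with log2 fold changes of 0.64 ± 0.22, 0.44 ± 0.38, 0.45 ± 0.42 and 0.37 ± 0.26. On the lower side they were those of Rps27rt, Rpl23a, Rpl35 and Rps3, with -0.45 ± 0.23, -0.43 ± 0.24, -0.33 ± 0.21 and -0.25 ± 0.15. None of these 8 was called.

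The interaction, which subtracts the TAC effect of WT hearts from that of KO hearts, asks whether the response depended on the genotype. Its median over the members was 0.17, against -0.07 over all genes, and it turned to -0.14 when scaled to library totals, against -0.40 over all genes. None of the members was called by edgeR, and no other gene was (percent called 0.0). There was 1 member at an unadjusted p under 0.05, among 1452 of all genes. DESeq2 called 0 members, among 0.246% of all genes. Limma-voom called 40, of which 36 were positive and 4 negative, among 32.0% of all genes. The smallest p belonged to Rpl24 (1.32 ± 0.69), Rps21 (0.81 ± 0.60), Rps27 (0.66 ± 0.47) and Rpl30 (0.40 ± 0.37) on the positive side, and to Rps2 (-0.74 ± 0.33), Rpl15 (-0.50 ± 0.23), Rpl23a (-0.53 ± 0.35) and Rpl13a (-0.45 ± 0.31) on the negative side. Leaving out KO sham replicate 1, 23 members were called with a larger and 1, Rps2, with a smaller TAC effect in KO than in WT, among 12.1% of all genes called, 4.66% larger and 7.45% smaller. In that fit Rps21 had an interaction of 1.76 ± 0.24 (adjusted p = 0.00255), Rps27 one of 1.36 ± 0.19 (adjusted p = 0.0028) and Rps2 one of -0.99 ± 0.19 (adjusted p = 0.0102). For Rpl24, with at most 25 counts per library, it was 1.35 ± 0.72 (adjusted p = 0.221). With WT TAC replicate 1 left out as well, 44 were larger and 5 smaller, among 36.1% of all genes called, 15.9% larger and 20.2% smaller. WT TAC replicate 1 was picked for this with earlier results known. Its members summed to 17200 CPM, the nearest of the WT TAC libraries to the KO TAC libraries.

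Within the family the size of the difference went with the length of the coding sequence. Members have 138 to 1257 coding bases, with a median of 462, against a median of 1410 for the 13388 other protein-coding genes tested. For TAC against sham in KO, Spearman's rho of log2 fold change with coding length was -0.69 over the 82 members and 0.04 over the other genes. It was -0.56 over members and -0.20 over other genes for TAC against sham in WT, -0.50 and 0.22 for KO against WT after TAC, and -0.12 and 0.09 for KO against WT after sham. Without KO sham replicate 1 the last of these was 0.78 over members and 0.08 over other genes. These are relations across genes that share libraries and scaling, so they are given as descriptions with no p. With GC content of the transcript the rho over members was between -0.00 and 0.16 in the 5 comparisons. In TAC against sham in KO the median log2 fold change was 0.89 in the 27 shortest members, 0.67 in the middle 27 and 0.34 in the 28 longest.

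**Figure D3:**
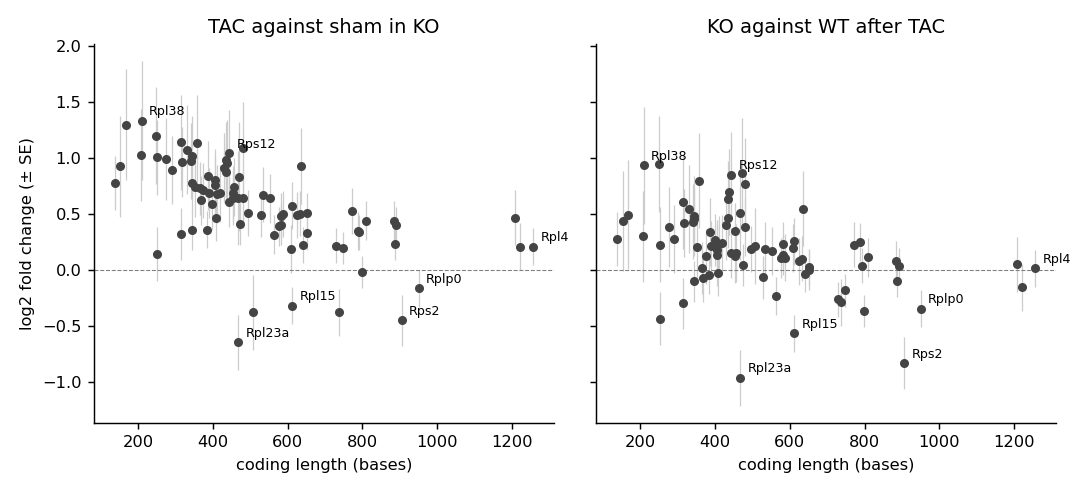
Log2 fold change (± SE) of each of the 82 tested members against its coding length in bases, for TAC against sham in KO (left) and KO against WT after TAC (right), from the fit of all 12 libraries. Values tend to fall with coding length in both panels, with a Spearman's rho of -0.69 on the left and -0.50 on the right. On the right Rpl24 and Rps12, of 471 and 444 coding bases, are also among the largest positive values. Rpl23a, Rps2 and Rpl15 lie below 0.

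The same gradient stood in single libraries, where scaling plays no part. The sum of the 27 shortest members was 0.750, 0.780 and 0.761 times that of the 28 longest in KO TAC hearts, against 0.743, 0.378 and 0.359 times in KO sham hearts. It was 0.695, 0.516 and 0.533 times in WT TAC hearts, against 0.484, 0.467 and 0.512 times in WT sham hearts. KO sham replicate 1 lay with the KO TAC libraries, WT TAC replicate 1 lay between them and the rest, and KO sham replicates 2 and 3 lay lowest. The longest members differed less: they summed to 7003, 6794 and 6611 CPM in KO TAC hearts, against 6270, 5228 and 5322 CPM in KO sham hearts. A pair of small-subunit proteins is given as an example. For each read of Rps2 there were 0.533, 0.583 and 0.489 reads of Rps21 in KO TAC hearts, against 0.531, 0.0745 and 0.0737 in KO sham hearts. In WT hearts the ratio was 0.209, 0.137 and 0.129 after TAC, against 0.135, 0.138 and 0.162 after sham surgery. This pair was chosen after its values were seen.

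**Figure D4:**
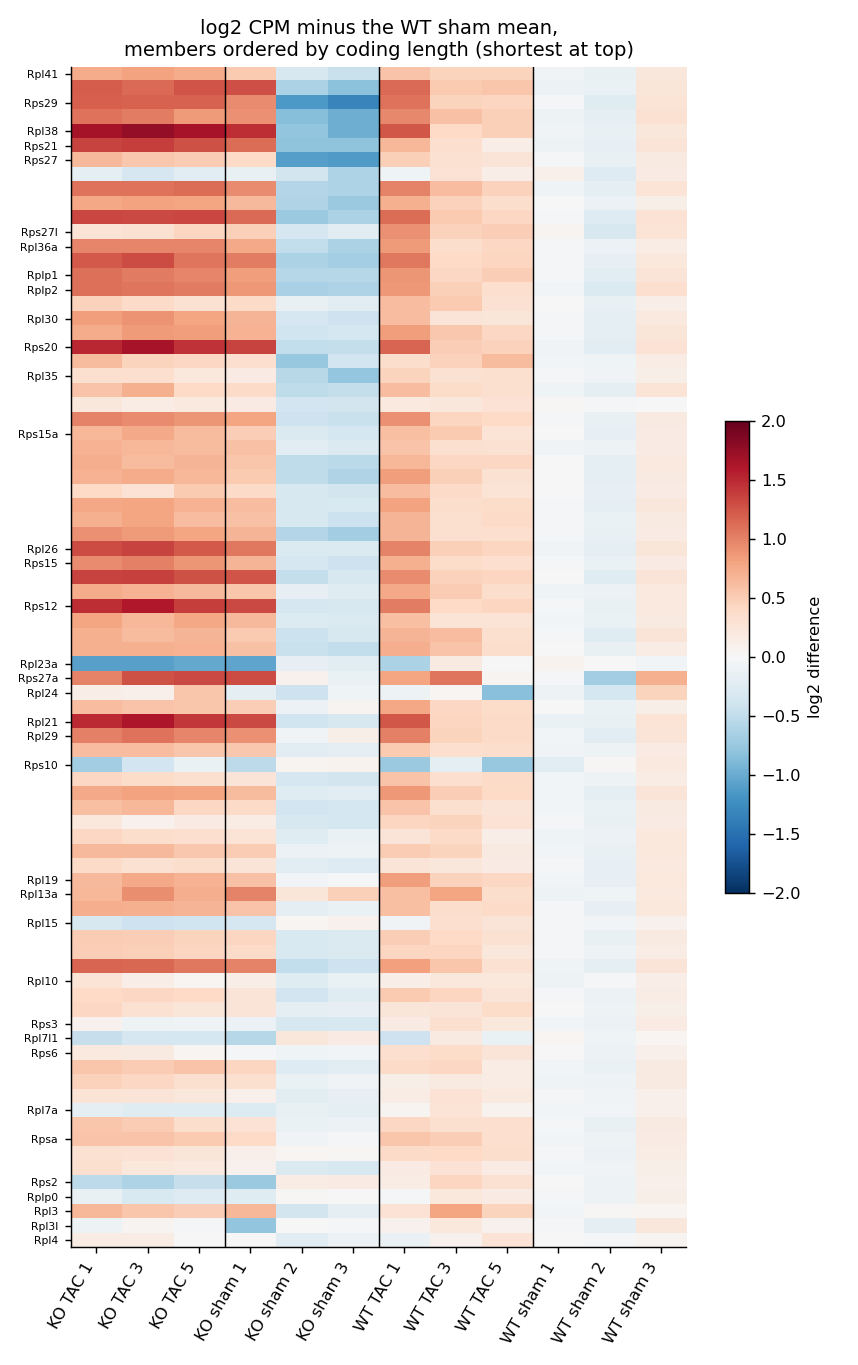
Log2 CPM of each tested member in each library minus its mean over the 3 WT sham libraries, after adding 0.5 CPM, with the 82 members ordered by coding length from the shortest at the top and only some of them named on the axis. Red is higher and blue is lower, limited to 2 in each direction. KO sham replicate 1 has the pattern of the KO TAC libraries, and WT TAC replicate 1 has it in part. In the KO TAC libraries and KO sham replicate 1, Rps2, Rpl23a and Rpl15 are blue while most of the short members are red. In the WT TAC libraries Rps2 lies above its WT sham mean.

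The stalk proteins divided by the same measure. Rplp1 had 389, 370 and 355 CPM in KO TAC hearts, against 324, 122 and 122 CPM in KO sham hearts, and 332, 241 and 253 CPM in WT TAC hearts, against 175, 157 and 215 CPM in WT sham hearts. Rplp2 had 241, 235 and 230 CPM in KO TAC hearts, against 205, 71.5 and 73.0 CPM in KO sham hearts. Rplp0, with 951 coding bases the longest of the 3, had 407, 364 and 376 CPM in KO TAC hearts, against 379, 455 and 450 CPM in KO sham hearts. Rplp1 and Rplp2, of 342 and 345 coding bases, were thus higher after TAC in KO and Rplp0 was not. For TAC against sham in KO the log2 fold changes were 0.97 ± 0.34 for Rplp1, 1.01 ± 0.36 for Rplp2 and -0.16 ± 0.17 for Rplp0, none called, and 1.602 ± 0.19, 1.70 ± 0.21 and -0.25 ± 0.14 without KO sham replicate 1, where Rplp1 and Rplp2 rose (adjusted p = 0.000114 and 0.000141). Rplp0 is often used as a reference gene in quantitative PCR.

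Among other members with a role outside the ribosome, Rpsa, the laminin receptor precursor, had 464, 465 and 450 CPM in KO TAC hearts, against 413, 298 and 306 CPM in KO sham hearts. Its log2 fold change was 0.44 ± 0.18 (adjusted p = 0.133), and without KO sham replicate 1 it rose by 0.60 (SE 0.14, adjusted p = 0.00516). Rps27a, which is made as a fusion with ubiquitin, had 149, 182 and 188 CPM in KO TAC hearts, against 185, 79.9 and 68.3 CPM in KO sham hearts, with overlap between the groups. Rpl13a had 8.62, 10.48 and 8.98 CPM in KO TAC hearts, against 11.0, 6.33 and 7.50 CPM in KO sham hearts, again with overlap.

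Pairs of paralogs were compared within each library as a ratio of raw counts. Rpl3l, the striated muscle form, was counted 0.738, 0.889 and 0.879 times as often as Rpl3 in KO TAC hearts, against 0.460, 1.604 and 1.42 times in KO sham hearts. In WT hearts the ratio was 1.10, 0.845 and 0.980 after TAC, against 1.28, 1.08 and 1.43 after sham surgery. The KO TAC ratios lay below those of KO sham replicates 2 and 3 and above that of KO sham replicate 1, which was the lowest of all 12, and in WT the groups overlapped. Rpl3 itself had 212, 196 and 187 CPM in KO TAC hearts, against 211, 104 and 116 CPM in KO sham hearts, and Rpl3l had 156, 174 and 165 CPM in KO TAC hearts, against 97.1, 166 and 165 CPM in KO sham hearts. Neither was called, and without KO sham replicate 1 Rpl3 rose by 0.84 (SE 0.16, adjusted p = 0.00163) while Rpl3l had a log2 fold change of -0.01 ± 0.15 (adjusted p = 0.962).

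Rps27l, a relative of Rps27 known in human cells as a p53 target, was counted 0.389, 0.429 and 0.477 times as often as Rps27 in KO TAC hearts, against 0.537, 0.865 and 0.963 times in KO sham hearts. The ratio was 0.683, 0.564 and 0.599 in WT TAC hearts, against 0.532, 0.448 and 0.540 in WT sham hearts. It was thus lower after TAC in KO hearts and higher after TAC in WT hearts, without overlap in either genotype, and no test was run on it. Rpl22l1, the paralog of Rpl22, was counted 0.141 to 0.160 times as often as Rpl22 in KO TAC hearts, against 0.0901 to 0.135 times in KO sham hearts. Rps4l, a mouse copy of the X-linked Rps4x, is annotated as a pseudogene and is no member. It was counted 0.0435 to 0.0489 times as often as Rps4x in KO TAC hearts, against 0.0473 to 0.0662 times in KO sham hearts.

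**Figure D5:**
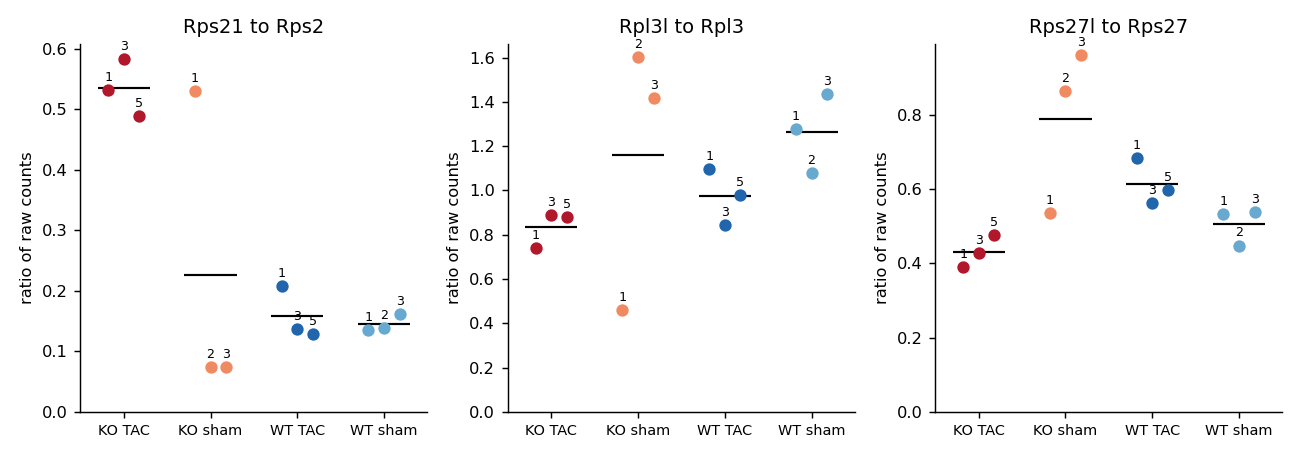
Ratio of raw counts within each library for Rps21 to Rps2, Rpl3l to Rpl3 and Rps27l to Rps27; points are libraries numbered by replicate and lines are group means. The ratio of Rps21 to Rps2 is 0.489 to 0.583 in KO TAC libraries and 0.531 in KO sham replicate 1, and at most 0.209 in the other 8.

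Ribosomal proteins with other kinds of symbols include Fau and Rack1. Fau, a fusion of a ubiquitin-like protein with the small-subunit protein S30, had 180, 182 and 174 CPM in KO TAC hearts, against 151, 51.0 and 51.3 CPM in KO sham hearts. Rack1, a scaffold on the head of the small subunit, had 309, 321 and 293 CPM in KO TAC hearts, against 281, 199 and 207 CPM in KO sham hearts. For TAC against sham in KO the log2 fold changes were 1.08 ± 0.37 for Fau and 0.43 ± 0.18 for Rack1, neither called, and without KO sham replicate 1 Fau rose by 1.80 (SE 0.21, adjusted p = 0.000116) and Rack1 by 0.60 (SE 0.14, adjusted p = 0.00498).

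Factors that act with the ribosome were described from lists. In KO against WT after TAC, 6 of 22 elongation and nascent chain factors fell and none rose, with a median of -0.36. Among them Eif5a, which helps ribosomes past proline stretches, fell by 1.14 (SE 0.27, adjusted p = 0.0236), Btf3l4 by 1.07 (SE 0.26, adjusted p = 0.025) and Eef1g, a subunit of the elongation factor 1 complex, by 0.64 (SE 0.16, adjusted p = 0.0271). Of 39 initiation factors 6 fell and 1 rose, with a median of -0.39. Eif1b fell by 0.57 (SE 0.12, adjusted p = 0.0188), Eif2b2, a subunit of the exchange factor of eIF2, by 0.61 (SE 0.14, adjusted p = 0.0234) and Eif3m by 0.67 (SE 0.18, adjusted p = 0.0327). These counts stand beside 8.63% of all genes called higher and 11.7% called lower.

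Of the 31 genes of the mTORC1 pathway and its terminal oligopyrimidine regulators, 8 fell and none rose in KO against WT after TAC, with a median of -0.35. Eif4ebp1, a translation repressor that mTORC1 switches off, fell by 1.23 (SE 0.26, adjusted p = 0.0198), Akt1s1, an inhibitor of mTORC1, by 0.70 (SE 0.15, adjusted p = 0.0198) and Lamtor1, which anchors it at the lysosome, by 0.70 (SE 0.16, adjusted p = 0.0211). For each list of this paragraph the share to compare is that of all genes, 8.63% called higher and 11.7% called lower. Of 54 ribosome biogenesis genes 8 fell and 2 rose, with a median of -0.15. Nle1 and Dimt1 rose by 1.66 (SE 0.36, adjusted p = 0.0198) and 0.94 (SE 0.23, adjusted p = 0.0241), and Rpf2 fell by 0.84 (SE 0.23, adjusted p = 0.0312). Of 17 RNA polymerase I genes and factors 1 rose, Ttf1 (0.73 ± 0.17, adjusted p = 0.0224), and 2 fell, Polr1d (-0.53 ± 0.14, adjusted p = 0.0278) and Rrn3 (-0.76 ± 0.24, adjusted p = 0.0456). Of the 17 tested genes of the integrated stress response and ribosome quality control, 3 rose and 1 fell, with Eif2ak4, the sensor of uncharged tRNA, 0.90 higher (SE 0.24, adjusted p = 0.0306).

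In TAC against sham no gene of these lists was called in either genotype with all 12 libraries by edgeR's test. With the mitochondrial and nuclear-retained RNAs the lists hold 201 tested genes, of which 61 in KO and 29 in WT had an unadjusted p under 0.05. Of all 15804 genes tested, 4878 in KO and 2562 in WT did. Their medians in KO were -0.22 for elongation factors, -0.14 for initiation factors, -0.22 for the mTORC1 list and -0.04 for biogenesis, against 0.61 for the members. With KO sham replicate 1 left out, 3 elongation factors rose and 8 fell in KO, 3 initiation factors rose and 17 fell, 5 genes of the mTORC1 list rose and 13 fell, and 7 biogenesis genes rose and 10 fell, beside 22.4% of all genes called higher and 25.1% lower. Eef1a2, the muscle and neuron form of elongation factor 1A, then fell by 2.17 (SE 0.26, adjusted p = 0.000133). In WT the median of the biogenesis list after TAC was 0.16, with 43 of 54 positive. Nhp2, a core protein of the box H/ACA particles that modify ribosomal RNA, had a log2 fold change of 0.83 ± 0.24 (adjusted p = 0.179), and Myc, an activator of ribosome synthesis listed with RNA polymerase I, one of 1.62 ± 0.39 (adjusted p = 0.125). Both rose without KO sham replicate 1, with adjusted p of 0.00632 and 0.0321.

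Sums of other RNAs also differed between libraries, and not all of them in the order of the members. All 12 cardiomyocyte markers were tested, and they summed to 43530 to 46860 CPM in KO TAC hearts, against 34440 CPM in KO sham replicate 1 and 60870 to 65830 CPM in the other 2 KO sham hearts. They summed to 64330 to 69300 CPM in WT TAC hearts, against 72000 to 75410 CPM in WT sham hearts, and in KO against WT after TAC 5 of them fell and none rose. RNAs known to be retained in the nucleus summed to 4153 to 5501 CPM in KO TAC hearts, against 3599, 1194 and 1160 CPM in KO sham hearts. They summed to 2288 to 3483 CPM in WT TAC hearts, with replicate 1 the highest, against 1551 to 1716 CPM in WT sham hearts. Atrial markers, of which 4 of 5 rose in KO against WT after TAC, summed to 643 to 2354 CPM in KO TAC hearts, against 251 to 545 CPM in WT TAC hearts, and to 2987, 403 and 263 CPM in KO sham hearts, against 81.3, 1731 and 167 CPM in WT sham hearts. Adipocyte markers, with 4 of 4 tested called higher in that comparison, summed to 8.92 to 10.48 CPM in KO TAC hearts, against 0.0492 to 0.753 CPM in WT TAC hearts. None of the markers of these 3 cell types was at 0 over the 12 libraries. Endothelial markers summed to 2222 to 2312 CPM in KO TAC hearts, against 1535 to 2655 CPM in WT TAC hearts, and to 2592, 1565 and 1720 CPM in KO sham hearts, against 1236 to 1778 CPM in WT sham hearts. Macrophage markers summed to 296 to 309 CPM in KO TAC hearts, against 263 to 418 CPM in WT TAC hearts. In KO against WT after TAC, 2 of 9 fibroblast, 1 of 4 lymphocyte, 1 of 5 mesothelial and 1 of 3 Schwann cell markers rose, 1 of 9 macrophage and 1 of 7 smooth muscle and pericyte markers fell, and none of 8 endothelial, 5 erythroid, 3 neutrophil and 2 skeletal muscle markers was called, beside 8.63% of all genes called higher and 11.7% lower. Of the mitochondrial protein genes 2 of 13 rose, and of the nuclear-retained RNAs 1 of 5. The mitochondrial share of counts was 44.0% to 51.3% in KO TAC hearts, against 24.8% to 32.5% in WT TAC hearts, and 30.5% to 51.0% in KO sham hearts, against 35.1% to 36.9% in WT sham hearts. The part of these differences in the results for the ribosomal protein mRNAs was not tested.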

How the data were processed

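The authors deposited 1 table of whole-number read counts per Ensembl gene identifier for the 12 libraries, not normalized. Per the labels' protocols, mRNA was selected with oligo(dT) beads, primed with random hexamers and read as 150 bp pairs; per the submitters' processing notes the aligner was HISAT2. No label or header names the counting program, its use of strand or the genome build. Symbols, types, coding lengths and gene coordinates came from GENCODE M21 (GRCm38), which matched 52081 of 55357 identifiers. The build of the counts may differ. Coding length is the longest annotated coding sequence of a gene. Start-site windows came from RefSeq tables (GRCm38.p6).

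The counts went through edgeR 4.0.16 (R 4.3.3) with TMM scaling and filterByExpr on the groups, which left 15804 genes. All 12 libraries entered 1 quasi-likelihood model, robust, with a coefficient for each of the 4 groups (8 residual degrees of freedom). P-values were adjusted after Benjamini-Hochberg over all these genes, with a threshold of 0.05. DESeq2 1.42.0 and limma 3.58.1 served as alternatives. CPM was computed from the deposited counts and is TMM-scaled, and errors of levels are SD and of log2 fold changes SE. The fit was tested on simulated data. Members, lists and the left-out libraries were chosen with earlier results of these data known. Named members are the stalk proteins, Rpsa, Rps6, Rpl13a, Rps27a and paralog pairs, up to 4 members a direction with the smallest p in each comparison, the 3 highest and lowest in WT sham, and the 3 most and least variable. Some of the items these rules name are not reported here. From each list up to 3 genes with the smallest p were named. Marker lists of 13 cell types and 7 lists of translation genes and other RNAs were used. Counting error only is covered by the limit of 3 counts for a count of 0.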

Additional observations from a re-analysis of the deposited data

How the results depend on the processing

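Of the values that answer a comparison, 344 stayed within the spread or within 1.5 times the count under the alternatives and 39 did not. DESeq2 called 2 members in TAC against sham in WT, 39 in TAC against sham in KO and 5 in KO against WT after TAC, among 1.45%, 5.66% and 14.45% of all genes. Limma-voom with sample weights called 15, 78, 34, 28 and 40 in TAC against sham in WT and in KO, KO against WT after sham and after TAC, and the interaction, whose median was then 0.44, among 6.52%, 63.2%, 14.9%, 48.4% and 32.0% of all genes. Leaving out 1 library at a time gave 0 to 26, 0 to 70, 0 to 2, 0 to 21 and 0 to 24 called members in the same order, and interaction medians of 0.041 to 0.45. The summed level gave an interaction of 0.0431 to 0.43 (log2). Each upper end of these ranges was reached without KO sham replicate 1. In that fit 6.53%, 47.6%, 0.241%, 40.7% and 12.1% of all genes were called, in the same order. With both KO sham replicate 1 and WT TAC replicate 1 left out, the counts were 19, 71, 17, 40 and 49, the median interaction 0.56 and the summed one 0.50. Of all genes 6.18%, 55.5%, 1.84%, 53.8% and 36.1% were called there. Both libraries were picked with earlier results known, and in summed CPM each was the nearest of its group to the KO TAC libraries. Scaling to library totals without TMM gave medians of 0.61 in TAC against sham in WT, -0.0514 in KO against WT after TAC and -0.14 in the interaction, and summed levels of 0.56, -0.0663 and -0.15. No filter on low counts gave 1 called member in TAC against sham in KO, among 2.14% of all genes called. A fit of only the groups compared gave 11 in KO against WT after TAC. The share of all genes called in that fit is not given here, so the 11 cannot be set against it. The cause of these changes was not tested.

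Deviations of same-numbered libraries from their group means had correlations of -0.25 to 0.66 over 14 pairs. With no reference for libraries that are not paired, these values cannot tell whether the numbers pair the samples. With a replicate block 0, 0, 0, 1 and 0 members were called, in the order of comparisons used above. Of all genes 0.0%, 0.0%, 0.00633%, 15.3% and 0.0% were called there. Of the values of single named members under the alternatives, 847 kept their side of the threshold, 80 passed it and 23 lost it, and none changed sign past the threshold. In edgeR's fit of all 12 libraries, the only members called were Rpl23a, Rps2 and Rpl15, in KO against WT after TAC. Their log2 fold changes were -0.96, -0.83 and -0.56, beside a median of 0.18 over the members.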
